A study of Mus musculus with 16 samples.

Results

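The 10 genes described here are grouped as secretory and uptake genes of the mouse yolk sac, and they are Afp, Ttr, Amn, Cubn, Apoa1, Apob, Srgn, Thbd, Cited1 and Pth1r. Not all are particular to the visceral endoderm: Thbd and Pth1r are tied below to parietal endoderm, and Cited1 to the placenta. They were taken by name from the gene list of the scanner files, where Srgn stood as Prg1 and Pth1r as Pthr1, and 15 of 41174 probes carried these names. They were chosen as a group known from embryology, not by a measured value of these arrays, although earlier results of the same arrays were known when the group was put together. Apob had 5 probes, Pth1r had 2, and the other 8 genes had 1 each. The probe with the highest mean level represents a gene that has several, and its other probes are described beside it.

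The visceral endoderm is the outer layer of the early embryo and later lines the yolk sac, where it feeds the embryo before the placenta works. On its outer face cubilin and amnionless form a receptor that takes up vitamin and protein cargo from the surrounding fluid, and megalin (Lrp2) carries cargo beside them. On its inner face the same cells secrete plasma proteins and lipoproteins, as the liver does later, and the retinoic acid made from vitamin A is a classical inducer of such endoderm in cultured embryonal cells.

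Total RNA came from the mouse embryonic stem cell line E14. The cells stably expressed a short hairpin RNA from a lentiviral vector, and all were grown in serum medium with a factor that the labels spell leukocyte inhibitory factor. The groups were sh-SIRT1 cells under 20 nM retinoic acid (RA) with 6 arrays, sh-Control cells under 20 nM RA with 4 arrays, sh-SIRT1 cells in vehicle (ethanol) with 3 arrays and sh-Control cells in vehicle with 3 arrays, each kept for 2 days. The sh-SIRT1 hairpin targets Sirt1, which encodes a deacetylase that uses NAD, and the title of the series names the question of how its loss bears on differentiation under RA. Each hairpin stands for 1 stably infected line in the labels, so the hairpin and the history of a line cannot be told apart. The design text speaks of 3 pairs of cells with duplicates and does not say which arrays are duplicates, so p-values reflect how these arrays vary, a spread that can be technical in part.

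Levels are the log2 of the 1-colour intensity minus the 75th percentile of the array. A value of 0 therefore lies at that percentile, and levels of different probes are not set against each other. On each array 60.28 to 68.56% of the spots were well above background. The targeted gene followed the labels, since Sirt1 lay between 0.92 and 1.59 on the sh-SIRT1 RA arrays, against 3.28 to 3.48 on the sh-Control RA arrays, and between 1.83 and 1.89 on the sh-SIRT1 vehicle arrays, against 3.53 to 3.85 on the sh-Control vehicle arrays. All 10 stem cell markers listed were well above background on every array. Under RA 2 of them rose and 6 fell in sh-SIRT1 cells, Utf1, Sox2, Tdgf1 and Pou5f1 the most, and 2 rose and 4 fell in sh-Control cells (2 and 2 with a normexp background correction or quantile normalization). Of all probes tested 58.1% were called in either direction under RA in sh-SIRT1 cells and 45.6% in sh-Control cells. Between the lines under RA, 5 of the markers were lower in sh-SIRT1 than in sh-Control cells and none higher, where 20.9% of all probes were called. The sh-Control RA arrays were not alike: the Y-linked gene Ddx3y lay at 0.23 on array 1 and at -6.91, -8.01 and -8.12 on arrays 2, 3 and 4, while it lay between 0.33 and 1.60 on the 12 arrays of the other groups. On arrays 2 to 4 an effect of RA or of the line therefore cannot be told apart from a difference in the cells that goes with Ddx3y. Leaving out sh-Control RA array 1, or arrays 1 and 2, keeps only arrays with low Ddx3y in that group. The SD of the log2 difference between 2 arrays over all kept probes was 0.61 to 0.71 between sh-Control RA arrays 1 and 2 and between either of them and arrays 3 or 4, and 0.21 between arrays 3 and 4. Among the sh-SIRT1 RA arrays it was 0.32 between arrays 1 and 2, 0.26 to 0.35 among arrays 3 to 6, and 0.52 to 0.59 between these sets. Each RA call of the 10 genes is therefore also given without these arrays where that ends the call or moves the change by over 1.5 times.

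Srgn, Pth1r, Amn, Cited1 and Afp were called higher under RA in both lines, and Cubn, Thbd and Apob in sh-SIRT1 cells only. In sh-SIRT1 cells 8 of the 10 genes were called higher under RA and none lower, where 22.1% of the 26373 probes tested were called higher and 58.1% were called in either direction. In sh-Control cells 5 of the 10 genes were called higher and none lower, where 19.1% of the probes were called higher and 45.6% in either direction. The filter on dim probes kept 8 of the 10 genes, and Afp passed it through the sh-Control RA arrays alone and Thbd through the sh-SIRT1 RA arrays alone, so their calls had to follow from where they were bright. Without any filter the counts were 8 of 10 higher in sh-SIRT1 cells, against 14.4% of all 41174 probes, and 5 of 10 higher in sh-Control cells, against 12.3%. Ttr and Apoa1 were not well above background on any of the 16 arrays. The median log2 difference of the 8 genes tested was 2.65 in sh-SIRT1 cells and 2.36 in sh-Control cells, beside medians over all probes of -0.15 and -0.13. With arrays scaled to their median, the medians over all probes were -0.44 and -0.29, and the counts of genes called higher were again 8 and 5. That scaling moved the share of higher calls among all called probes to 22.5%, against 38% in the main scaling, in sh-SIRT1 cells and to 28.6%, against 42%, in sh-Control cells. Calls were made by limma at a Benjamini-Hochberg adjusted p under 0.05, in 1 fit of all 16 arrays. In such bulk RNA, more cells of a type and more RNA per cell cannot be told apart.

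**Figure D1:**
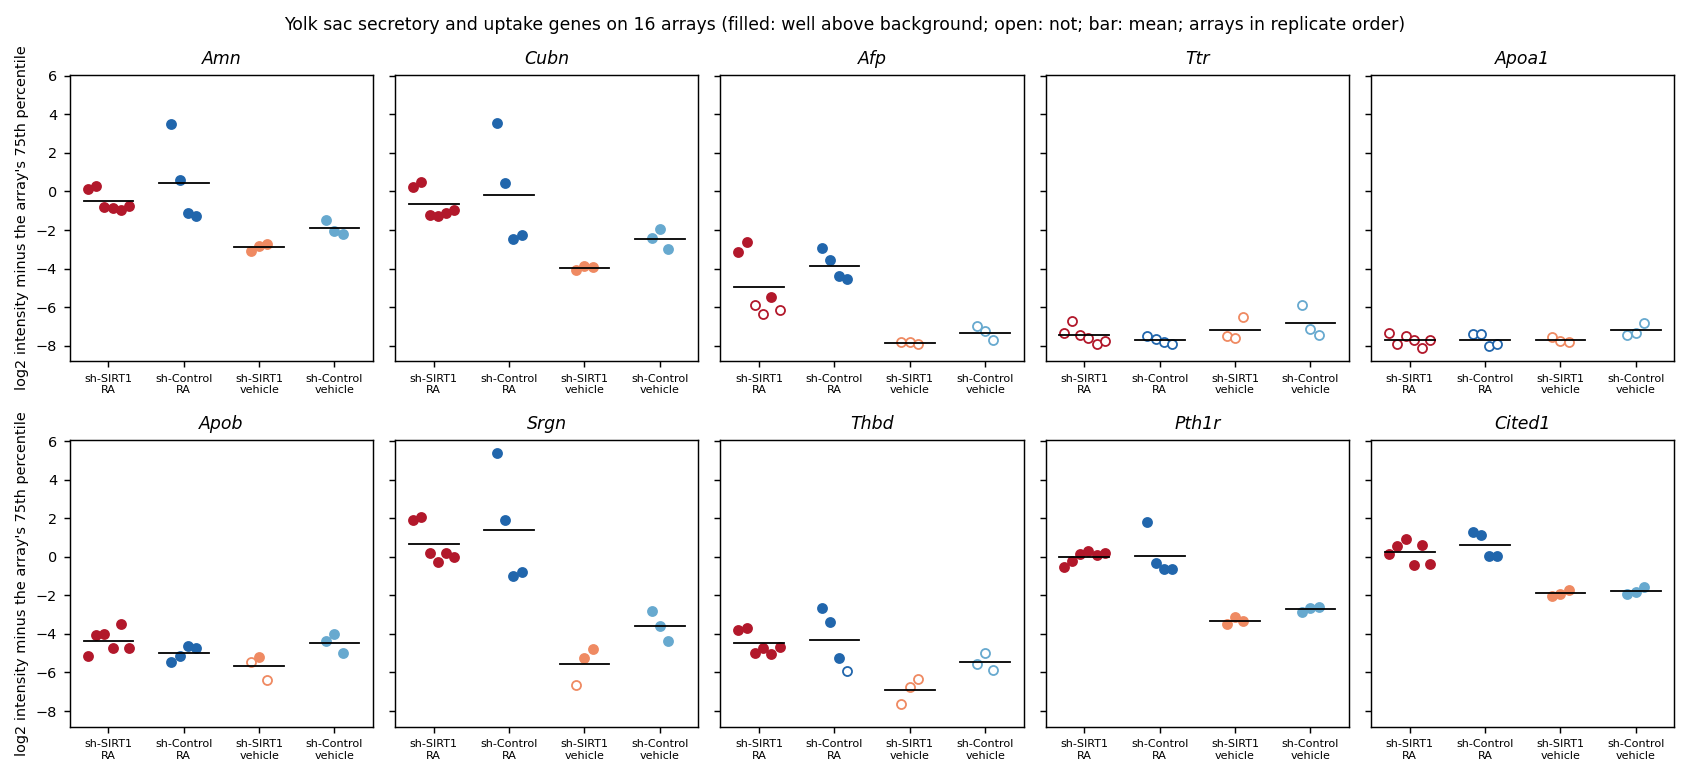
Level of each of the 10 genes on all 16 arrays, as log2 intensity minus the 75th percentile of the array, with points in the order of the array numbers within each group, filled where the probe was well above background, and a bar at the group mean. Pth1r, Cited1, Srgn, Amn and Afp lay higher on every RA array than on any vehicle array, although Afp was not above background on some of the RA arrays. Srgn, Cubn and Amn were spread widely over the 4 sh-Control RA arrays, and Ttr and Apoa1 were never above background.

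The uptake receptor is made of cubilin (Cubn), a large extracellular protein with no membrane anchor of its own, and amnionless (Amn), the membrane protein that holds it and brings it to the surface. The promoters of this pair are shown because the pair moved together over the arrays. They are the 250 bases before the annotated start from RefSeq (GRCm38.p6), written 5′ to 3′ on the strand of the gene, Amn at chr12:111270846-111271095 on the plus strand and Cubn at chr2:13491877-13492126 on the minus strand.
Amn: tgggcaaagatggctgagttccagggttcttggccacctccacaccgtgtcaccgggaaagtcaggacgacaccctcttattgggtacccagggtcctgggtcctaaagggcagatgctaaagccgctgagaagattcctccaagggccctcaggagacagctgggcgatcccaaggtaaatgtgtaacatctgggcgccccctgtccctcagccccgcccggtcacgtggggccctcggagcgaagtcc
Cubn: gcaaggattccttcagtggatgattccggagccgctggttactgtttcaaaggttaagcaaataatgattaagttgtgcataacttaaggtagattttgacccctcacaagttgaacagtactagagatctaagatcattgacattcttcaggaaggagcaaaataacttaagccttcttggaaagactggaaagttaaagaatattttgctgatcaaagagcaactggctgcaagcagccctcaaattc
Their GC content was 61.2% for Amn and 39.6% for Cubn. Neither window holds the letters searched for GATA factors (TGATAA or AGATAA, and the same with G as the last base), SOX factors (AACAAT or GACAAT), the TATA box (TATAAA) or the RA response element (AGGTCA or AGTTCA, either one repeated in the same direction with any 5 or 2 bases between) on either strand. Over all 32851 promoter windows of the table the shares with these letters were 26.5%, 15.9%, 12.4% and 0.0487%, in this order.

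Cubn had levels of -1.29 (lowest), -1.05 (median) and 0.51 (highest) on the 6 sh-SIRT1 RA arrays, and -4.09, -3.84 and -3.91 on the sh-SIRT1 vehicle arrays. All RA arrays of this line lay above its vehicle arrays, and the difference was 3.31 ± 0.98 (SE), a 9.92-fold change (limma adjusted p = 0.0101). In sh-Control cells the levels were 3.53, 0.45, -2.47 and -2.25 on RA arrays 1 to 4, against -2.40, -1.94 and -2.99 on the vehicle arrays. Arrays 1 and 2 lay above all vehicle arrays and arrays 3 and 4 lay among them, and the difference of 2.26 ± 1.06 did not pass (adjusted p = 0.0962). The difference turned on single arrays: it was 1.02 (adjusted p = 0.235) without sh-Control RA array 1 and 0.08 (adjusted p = 0.787) with RA arrays 1 and 2 of both lines left out, while the sh-SIRT1 difference was then 2.80 and still passed. Within the slides that held both groups, 1 array of each, the sh-Control difference was -0.07 on slide 1 and 6.52 on slide 4, while the sh-SIRT1 difference was 2.55, 2.96 and 3.57 on slides 1, 2 and 3.

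Amn, like Cubn, was highest on sh-Control RA array 1, and in sh-SIRT1 cells it was higher on RA arrays 1 and 2 than on the others. Its levels were -0.96, -0.78 and 0.28 (lowest, median, highest) in sh-SIRT1 cells under RA, against -3.07, -2.82 and -2.72 in sh-SIRT1 cells in vehicle, with no overlap. In sh-Control cells they were 3.47, 0.57, -1.12 and -1.26 on RA arrays 1 to 4, against -1.5, -2.03 and -2.18 in vehicle, again with no overlap but with arrays 3 and 4 close to the vehicle arrays. The change was 2.38 ± 0.76 in sh-SIRT1 cells (limma adjusted p = 0.0152) and 2.32 ± 0.82 in sh-Control cells (adjusted p = 0.0322), or 5.19-fold and 5.00-fold by the mean. The sh-Control rise was 1.30 (2.47-fold, adjusted p = 0.0299) without RA array 1 and 0.71 (1.64-fold, adjusted p = 0.00750) with RA arrays 1 and 2 of both lines left out. The sh-Control call was lost without RA array 2 (2.27, adjusted p = 0.0595) and without any 1 of the 3 vehicle arrays. A normexp background correction (2.11, adjusted p = 0.0609) and a fit of only the 2 groups compared (2.32, adjusted p = 0.141) also lost it. Within slides the sh-Control difference was 0.38 on slide 1 and 5.66 on slide 4. The sh-SIRT1 call was lost without vehicle array 1 (2.28, adjusted p = 0.0515) and with only RA arrays 3 to 6 of that line (2.03, adjusted p = 0.0568). Over the 16 arrays the 2 receptor genes had a Pearson r of 0.98, the highest that either of them reached with any of 18281 genes. The next most alike were Aqp8 (0.98) and Adam15 (0.97) for Cubn, and Klb (0.97) and Erp44 (0.97) for Amn. These correlations run over arrays that share treatment, line and slide, and they describe the pattern only.

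The partners of the receptor pair did not all follow it. Lrp2, the megalin receptor, lay at 1.79 (lowest), 2.22 (median) and 2.55 (highest) in sh-SIRT1 cells under RA, against -0.01, -0.07 and -0.12 in vehicle, and rose by 2.31 ± 0.23 (limma adjusted p = 1.63e-06). In sh-Control cells Lrp2 had levels of 2.65, 2.52, 1.67 and 1.49 under RA, against 1.62, 1.51 and 1.49 in vehicle, and its difference of 0.54 ± 0.25 did not pass (adjusted p = 0.0880). Dab2, the adaptor that links the receptors to clathrin and a known marker of endoderm, rose in both lines, by 3.02 ± 0.66 in sh-SIRT1 cells (adjusted p = 0.00124) and by 3.25 ± 0.71 in sh-Control cells (adjusted p = 0.00203). On the sh-Control RA arrays Dab2 lay at 2.36, 0.12, -1.73 and -1.77, with array 1 the highest and array 2 next, as for Cubn and Amn, and all 4 were above the vehicle arrays at -3.66, -3.50 and -3.37. Lrpap1, the chaperone of megalin, rose by 0.80 ± 0.31 in sh-SIRT1 cells (adjusted p = 0.0369) and by 0.88 ± 0.33 in sh-Control cells (adjusted p = 0.0427), and neither call held with arrays scaled to their median or with a normexp background correction. The sh-Control call was also lost without RA array 1. Of the 14 uptake partners listed 13 were tested. In sh-SIRT1 cells 8 rose and 0 fell, with a median of 0.80, and in sh-Control cells 7 rose and 1 fell, with a median of 0.54, where 22.1% and 19.1% of all probes were called higher. These counts moved with the processing: in sh-SIRT1 cells 5 rose and 0 fell with a normexp background correction, 11 and 0 with quantile normalization and 5 and 1 with median scaling, and in sh-Control cells 4 and 0, 8 and 0, and 5 and 1. With RA arrays 1 and 2 left out they were 9 and 1 in sh-SIRT1 cells and 8 and 2 in sh-Control cells. Beside Dab2 and Lrp2, the endosomal chloride exchanger Clcn5 rose by 3.49 ± 0.31 in sh-SIRT1 cells and by 3.48 ± 0.33 in sh-Control cells, as did the IgG receptor Fcgrt (2.86 ± 0.47 and 1.52 ± 0.51), the lipoprotein receptor Vldlr (2.43 ± 0.34 and 2.09 ± 0.37) and the lysosomal protease Lgmn (0.80 ± 0.30 and 1.51 ± 0.32). The Lgmn call in sh-SIRT1 cells was lost with arrays scaled to their median and with a normexp background correction, and the Fcgrt call in sh-Control cells with the normexp correction. The gene that fell in sh-Control cells was the transferrin receptor Tfrc, named after its value was seen. Cblif, intrinsic factor and a ligand of cubilin, never exceeded background.

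Alpha-fetoprotein (Afp) is the main secreted plasma protein of the visceral endoderm and fetal liver, and its promoter is shown because the gene rose under RA in both lines. It lies at chr5:90490464-90490713 (GRCm38.p6, plus strand), and the capitals mark the TATA letters.
Afp: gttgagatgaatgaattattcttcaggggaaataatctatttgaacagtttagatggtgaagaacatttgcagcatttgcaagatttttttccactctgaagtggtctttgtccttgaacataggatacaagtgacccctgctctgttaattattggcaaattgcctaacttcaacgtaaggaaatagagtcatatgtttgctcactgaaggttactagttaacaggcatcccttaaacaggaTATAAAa
Afp had levels of -3.16, -2.61 and -5.48 on sh-SIRT1 RA arrays 1, 2 and 5, where it was well above background, and of -5.89, -6.34 and -6.16 on arrays 3, 4 and 6, where it was not. In sh-Control cells it was above background on all 4 RA arrays, at -2.91, -3.57, -4.40 and -4.56. On the vehicle arrays it was not above background, between -7.91 and -7.79 in sh-SIRT1 cells and between -7.69 and -7.0 in sh-Control cells. The mean signal under RA was at least 1.69-fold higher in sh-SIRT1 cells (limma adjusted p = 0.00375) and at least 2.93-fold higher in sh-Control cells (adjusted p = 0.00290), as bounds against the dimmest signal counted as above background. The sh-SIRT1 mean includes arrays 3, 4 and 6, which were not above background, so its bound does not hold for each array. The measured means were -4.94 and -7.83 in sh-SIRT1 cells under RA and vehicle, and -3.86 and -7.32 in sh-Control cells under RA and vehicle. With RA arrays 1 and 2 of both lines left out the measured differences of the means were 1.86 and 2.83 and still passed. Of the sh-SIRT1 RA arrays then left only array 5 was above background, so the 1.86 compares signals mostly at background. With a normexp background correction neither call held (1.00 with adjusted p = 0.106, and 1.00 with adjusted p = 0.173).

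Ttr and Apoa1, further products of the yolk sac, gave no signal above background. Ttr, which carries thyroid hormone and retinol-binding protein, lay between -7.89 and -6.71 in sh-SIRT1 cells under RA, between -7.92 and -7.49 in sh-Control cells under RA, between -7.59 and -6.49 in sh-SIRT1 cells in vehicle and between -7.46 and -5.91 in sh-Control cells in vehicle. Apoa1, the main protein of high-density lipoprotein, lay between -8.13 and -6.82 over all 16 arrays. With no value well above background, no fold is given for either gene.

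Several other secreted plasma proteins were higher under RA. Of all probes tested 22.1% were called higher in sh-SIRT1 cells and 19.1% in sh-Control cells. Of 16 listed plasma proteins, 11 were tested, and 7 rose and 0 fell in sh-SIRT1 cells (median 1.58), while 5 rose and 1 fell in sh-Control cells (median 1.52). A normexp background correction left 4 and 0, and 4 and 1, and with RA arrays 1 and 2 left out it was 8 and 0 in sh-SIRT1 cells and 5 and 3 in sh-Control cells. Rbp4, the retinol carrier that binds transthyretin in plasma, rose by 3.59 ± 0.25 in sh-SIRT1 cells (limma adjusted p = 5.18e-08) and by 1.96 ± 0.27 in sh-Control cells (adjusted p = 4.87e-05). The growth factor Igf2 rose by 5.41 ± 0.88 and 4.45 ± 0.95, with levels of 4.82, 4.62, 1.38 and 1.18 on the sh-Control RA arrays, and Ambp, the precursor of a protease inhibitor, by 3.65 ± 0.65 and at least 6.57-fold. The fibrinogen chain Fgb was at least 2.10-fold higher in sh-SIRT1 cells (adjusted p = 9.26e-04, not kept with a normexp background correction), while in sh-Control cells its at least 1.73-fold difference did not pass (adjusted p = 0.0592). The gene that fell in sh-Control cells was transferrin (Trf), named after its value was seen. Alb, Fga and Spp2 were not above background on any array.

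Apob, the structural protein of the lipoproteins that the yolk sac and gut secrete, was measured well by only 1 of its 5 probes. The probes are shown since the result turns on them. They lie on chromosome 12 of the build mm7, the build of the files, all on the plus strand, and in the order of position probe 2 is chr12:7963823-7963882, probe 4 is chr12:7972247-7972306 and probe 5 is chr12:7972307-7972366, which directly adjoins probe 4.
Apob probe 2: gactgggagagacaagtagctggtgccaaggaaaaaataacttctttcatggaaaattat
Apob probe 4: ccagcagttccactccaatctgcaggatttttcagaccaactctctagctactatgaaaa
Apob probe 5: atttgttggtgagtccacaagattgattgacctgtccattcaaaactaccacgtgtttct
Probe 2, the brightest, was well above background on 14 of 16 arrays, probe 5 on 7, probe 4 on 1, and probes 1 and 3 on 0. The GC content of the shown probes was 38.3%, 43.3% and 40%. By probe 2, Apob had levels of -5.17, -4.39 and -3.49 (lowest, median, highest) in sh-SIRT1 cells under RA, against -5.45, -5.19 and -6.39 in vehicle, where only array 2 was above background. The groups did not overlap and the difference was 1.31 ± 0.36 (limma adjusted p = 0.00632). It was lost without sh-SIRT1 vehicle array 3 (adjusted p = 0.0522) and with a normexp background correction (0.54, adjusted p = 0.404). In sh-Control cells the levels were -5.43, -5.14, -4.61 and -4.71 under RA, against -4.35, -4.01 and -4.98 in vehicle, overlapping, with a difference of -0.53 ± 0.39 (adjusted p = 0.283). Probe 5 differed by 0.33 ± 0.67 in sh-SIRT1 cells and by 0.74 ± 0.72 in sh-Control cells, with overlapping groups in each, and it did not pass the filter. Probe 4 had measured means of -6.36 under RA and -7.66 in vehicle in sh-SIRT1 cells and of -6.91 and -6.97 in sh-Control cells, overlapping in each, and with 1 array above background no fold is given. The Apob call in sh-SIRT1 cells thus rests on probe 2, which is close to background.

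**Figure D2:**
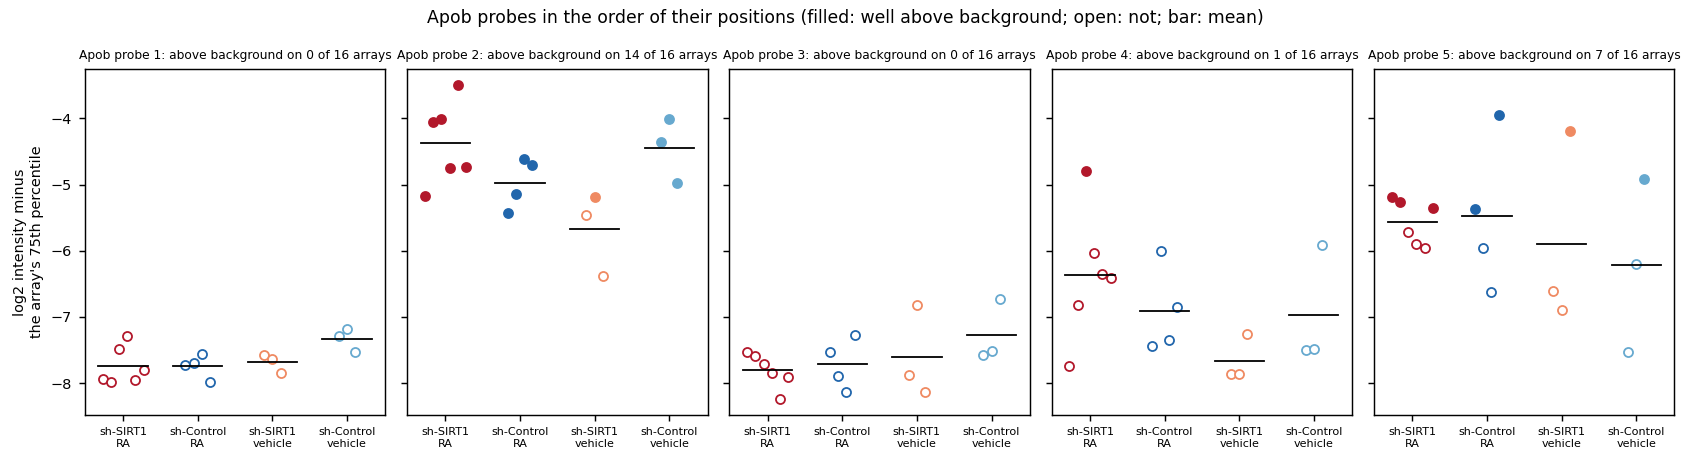
Level of the 5 Apob probes, in the order of their positions, on all 16 arrays, as log2 intensity minus the 75th percentile of the array, with filled points where the probe was well above background and a bar at the group mean. Probe 2 was above background on 14 of 16 arrays, and the other probes on 0, 0, 1 and 7.

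Among the partners in lipoprotein assembly, Mttp, which loads lipid onto apolipoprotein B, rose by 1.13 ± 0.26 in sh-SIRT1 cells (limma adjusted p = 0.00213) and differed by 0.55 ± 0.28 in sh-Control cells (adjusted p = 0.128), and the sh-SIRT1 call was lost with a normexp background correction. It lay lower in sh-SIRT1 than in sh-Control cells in vehicle, at -5.52, -4.89 and -4.71 against -4.24, -4.00 and -3.72 (-1.05 ± 0.30, adjusted p = 0.0460). Of the 14 lipoprotein partners 10 were tested. In sh-SIRT1 cells 2 rose (Mttp and its subunit P4hb, which is also an abundant enzyme of the endoplasmic reticulum) and 2 fell (Apoe and Lcat), and in sh-Control cells 0 rose and 2 fell, again Apoe and Lcat. Of all probes tested 58.1% were called in either direction in sh-SIRT1 cells and 45.6% in sh-Control cells, so these counts are no more than the shares over all probes. The P4hb call was lost with arrays scaled to their median and with a normexp background correction, and under that correction Lcat was at -0.13 (adjusted p = 0.847) in sh-SIRT1 and -0.14 (adjusted p = 0.913) in sh-Control cells. The list as a whole had 0 rising and 1 falling in each line under it, and 1 rising and 3 falling in sh-SIRT1 and 0 and 5 in sh-Control cells with median scaling. Without sh-Control RA array 1 it had 0 rising and 4 falling in sh-Control cells, and with RA arrays 1 and 2 left out 2, Mttp among them, and 3. Apoe, an apolipoprotein of many cell types, fell by 1.73 on the log2 scale in sh-SIRT1 cells and by 1.44 in sh-Control cells.

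Serglycin (Srgn), the core protein of secretory granule proteoglycans and first cloned from a rat yolk sac tumour, changed most of all 10 genes. Of its 2 RefSeq start sites, the promoter of the upstream one is shown, as that of the gene with the largest change. It lies at chr10:62527446-62527695 (GRCm38.p6, minus strand), and the capitals mark the TATA letters.
Srgn: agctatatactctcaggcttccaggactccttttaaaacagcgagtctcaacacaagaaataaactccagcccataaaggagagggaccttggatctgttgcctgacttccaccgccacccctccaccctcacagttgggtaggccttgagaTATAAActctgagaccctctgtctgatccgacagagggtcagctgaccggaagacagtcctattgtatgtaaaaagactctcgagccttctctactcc
The TATA letters begin 98 bases before the annotated start and the other letters searched are not in the window. Srgn had levels of 1.88, 2.07, 0.17, -0.29, 0.20 and -0.02 on sh-SIRT1 RA arrays 1 to 6, against -6.63, -5.24 and -4.81 in vehicle, of which the first was not above background. Every RA array lay above the vehicle arrays of the line, with no overlap, and the difference was 6.23 ± 1.11, or 74.9-fold (limma adjusted p = 2.66e-04). In sh-Control cells the levels were 5.39, 1.90, -1.0 and -0.78 under RA, against -2.80, -3.56 and -4.35 in vehicle. The groups did not overlap, arrays 3 and 4 lay closest to vehicle, and the difference was 4.95 ± 1.20, or 30.9-fold (adjusted p = 0.00412). Within slides the sh-Control difference was 1.80 on slide 1 and 9.73 on slide 4. It was 3.61 (12.2-fold) without RA array 1, and with RA arrays 1 and 2 of both lines left out it was 2.68 (6.41-fold), passing in both cases. In sh-SIRT1 cells the difference was then 5.58, or 47.7-fold. The genes whose levels over the 16 arrays were most like those of Srgn were Sox17 (Pearson r = 0.99), Bmper (0.98) and Slc35g1 (0.98) of 18281 genes, again over arrays that share treatment, line and slide.

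Thrombomodulin (Thbd), a surface receptor that turns thrombin into an anticoagulant and that parietal endoderm and trophoblast of the mouse embryo carry, was dim. It was above background on all 6 sh-SIRT1 RA arrays, at -5.05 (lowest), -4.70 (median) and -3.68 (highest), and on none of the sh-SIRT1 vehicle arrays, at -7.61, -6.74 and -6.34. The signal was at least 2.31-fold higher under RA (limma adjusted p = 0.00316, measured means -4.49 and -6.90), a call that a normexp background correction did not keep (0.78, adjusted p = 0.151). In sh-Control cells it was at -2.64, -3.40, -5.23 and -5.93 under RA, the last not above background, and at -5.57, -4.98 and -5.85 in vehicle, all below it. Arrays 1 and 2 lay above the vehicle arrays, array 3 among them and array 4 below them. The bound was at least 2.02-fold, and the difference did not pass (adjusted p = 0.153, measured means -4.30 and -5.47). It was 0.61 without RA array 1 and -0.11 with RA arrays 1 and 2 of both lines left out. Procr, the receptor that presents protein C to the thrombin and thrombomodulin complex, rose by 0.53 ± 0.20 in sh-SIRT1 cells (adjusted p = 0.0341, lost with arrays scaled to their median) and by 1.42 ± 0.22 in sh-Control cells (adjusted p = 1.35e-04). It was higher in sh-SIRT1 than in sh-Control cells in vehicle, at -0.52, -0.28 and -0.23 against -1.88, -1.37 and -1.50 (1.24 ± 0.23, adjusted p = 0.00515). F3, which starts coagulation, and F2r, the thrombin receptor, rose in both lines, F3 by 1.97 ± 0.46 and 1.5 ± 0.49 and F2r by 1.56 ± 0.30 and 1.10 ± 0.32 in sh-SIRT1 and sh-Control cells. The sh-Control call of F3 was lost without RA array 1 (1.11, adjusted p = 0.0615), and that of F2r with RA arrays 1 and 2 left out (0.40, adjusted p = 0.0533). The genes most like Thbd over the 16 arrays were S100a11 (Pearson r = 0.97), LOC670046 (0.97) and Glipr2 (0.97).

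Pth1r, the receptor of parathyroid hormone-related protein, which in the mouse embryo drives the step to parietal endoderm, rose on every RA array. Its levels were -0.55, -0.22, 0.12, 0.30, 0.08 and 0.19 on sh-SIRT1 RA arrays 1 to 6, against -3.51, -3.15 and -3.35 in vehicle. In sh-Control cells they were 1.81, -0.31, -0.64 and -0.65 under RA, against -2.88, -2.68 and -2.58 in vehicle. Every RA array of either line lay above every vehicle array, by 3.32 ± 0.42 in sh-SIRT1 cells (9.99-fold, limma adjusted p = 1.26e-05) and by 2.77 ± 0.45 in sh-Control cells (6.81-fold, adjusted p = 2.20e-04). The sh-Control rise was 2.18 (4.53-fold) without RA array 1 and 2.07 (4.20-fold) with RA arrays 1 and 2 of both lines left out, and passed in both cases. The second probe gave 3.80 ± 0.41 and 2.98 ± 0.45, also with no overlap. Both calls held under all 24 and 22 alternatives that could be fitted for each. The ligand Pthlh was well above background on 6 arrays and failed the filter, and its second ligand Pth on none. The genes most like Pth1r over the 16 arrays were Fhdc1 (Pearson r = 0.985), 2210409E12Rik (0.985) and Trp53inp2 (0.98).

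Cited1, a coactivator that binds the acetyltransferases CBP and p300 and is needed in the mouse placenta, also rose on every RA array. It had levels of -0.42 (lowest), 0.34 (median) and 0.91 (highest) in sh-SIRT1 cells under RA, against -2.02, -1.92 and -1.73 in vehicle, and the rise was 2.13 ± 0.33 (4.36-fold, limma adjusted p = 7.99e-05). In sh-Control cells the levels were 1.30, 1.12, 0.05 and 0.06 under RA, against -1.92, -1.83 and -1.55 in vehicle, and the rise was 2.40 ± 0.35 (5.26-fold, adjusted p = 1.05e-04). No array of one treatment overlapped with the other in either line. Its relative Cited2 rose by 1.5 ± 0.12 in sh-SIRT1 cells and by 0.86 ± 0.13 in sh-Control cells, and Cited4 by 1.53 ± 0.62 in sh-SIRT1 cells (adjusted p = 0.0476, lost with median scaling, quantile normalization or the normexp correction), while it did not pass in sh-Control cells (0.16 ± 0.67, adjusted p = 0.865, and -0.48 without RA array 1). Of 16 ligands and partners of these receptors and coactivators 14 were tested, 5 rose and 1 fell in sh-SIRT1 cells, and 5 rose and 3 fell in sh-Control cells. Of all probes tested 22.1% and 19.1% were called higher in these lines, and 58.1% and 45.6% in either direction. In sh-SIRT1 cells 3 rose and 1 fell with median scaling, and in sh-Control cells 3 rose and 4 fell without RA array 1. The genes most like Cited1 were Dner (Pearson r = 0.98), Krtap5-1 (0.98) and Nefm (0.97).

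**Figure D3:**
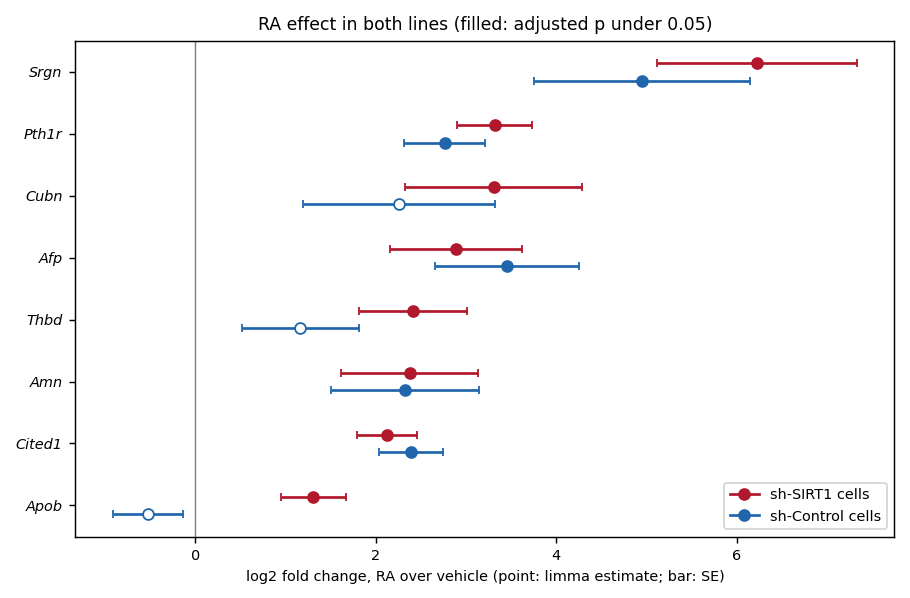
RA over vehicle in sh-SIRT1 and sh-Control cells for the 8 genes that passed the filter, as the log2 fold change fitted by limma with its SE, filled where the adjusted p was under 0.05; the vehicle signal of Afp and Thbd was below background, so their fitted values are no measured folds. Srgn had the largest change in each line, 8 genes were called in sh-SIRT1 cells and 5 in sh-Control cells, and Apob was the only gene with a negative value, in sh-Control cells.

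The RA responses of the lines were set against each other by the interaction term of the fit, sh-SIRT1 minus sh-Control. Of the 8 genes tested 0 were called by limma, where 4.55% of all probes were called (43.1% of them higher, and 26.4% with arrays scaled to their median), and 1 had an unadjusted p under 0.05. The largest difference was that of Apob, at 1.84 ± 0.53 (adjusted p = 0.0631), followed by Srgn (1.28 ± 1.63), Thbd (1.25 ± 0.88) and Cubn (1.05 ± 1.45). The Apob difference passed without sh-SIRT1 RA array 1 (2.00, adjusted p = 0.0382), with sh-SIRT1 RA arrays 3 to 6 only (1.96, adjusted p = 0.0428) and with array weights (1.74, adjusted p = 0.0106). Without sh-Control RA array 1 the difference of Pth1r passed (1.14, adjusted p = 0.0157), and with RA arrays 1 and 2 of both lines left out Amn, Cubn, Srgn, Thbd and Pth1r passed, all with a larger RA effect in sh-SIRT1 cells. More probes were called in these settings than in the main fit, 2912 of 26512 without sh-Control RA array 1 and 5936 of 26373 without RA arrays 1 and 2. Slide 1, the only one with all 4 groups, gave differences of 1.60 for Amn, 2.62 for Cubn, 3.14 for Srgn and 1.21 for Pth1r from single arrays, and with slide as a block in the fit of all arrays those of Amn (-0.86), Cubn (-0.013) and Srgn (-0.065) were negative.

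The levels under RA were also set against each other. Between sh-SIRT1 RA and sh-Control RA arrays 0 of the 8 genes were called by limma and 0 had an unadjusted p under 0.05, where 20.9% of all probes were called, and the arrays of the 2 groups overlapped for all 10 genes. The differences were -0.91 ± 0.69 for Amn, -0.46 ± 0.90 for Cubn, -0.71 ± 1.01 for Srgn, -0.07 ± 0.38 for Pth1r, -0.40 ± 0.30 for Cited1, -0.18 ± 0.55 for Thbd, -1.08 ± 0.67 for Afp and 0.61 ± 0.33 for Apob. Without sh-Control RA array 1 Pth1r was higher in sh-SIRT1 cells (0.52, adjusted p = 0.0397) and Cubn (0.78), Srgn (0.63), Thbd (0.37) and Amn (0.11) had positive differences that did not pass. With RA arrays 1 and 2 of both lines left out Cubn (1.21, adjusted p = 0.00304) and Pth1r (0.82, adjusted p = 5.61e-04) were higher and Afp (-1.49, adjusted p = 0.00105) was lower in sh-SIRT1 cells. In that setting 8708 of 26373 probes were called, so the 3 of 8 genes called are near the share over all probes. Among the sh-SIRT1 RA arrays then left, Afp was above background on array 5 only, so its size of change is not well measured. Within slides the sign turned likewise: the difference of Cubn was 1.17 on slide 1, -0.23 on slide 2 and -3.89 on slide 4, which holds sh-Control RA array 1.

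In vehicle most of the 10 genes had lower levels in sh-SIRT1 than in sh-Control cells, and none passed the test. Of the 8 genes tested 0 were called by limma, where 8.41% of all probes were called (51.8% of them higher, and 73.3% with arrays scaled to their median), and 1 had an unadjusted p under 0.05, while all 8 differences were negative, with a median of -1.10 beside 0.00 over all probes. With representative probes, 8 of the 10 genes were lower in sh-SIRT1 than in sh-Control vehicle arrays with no overlap between 3 and 3 arrays, where 16.9% of all kept probes were. Afp, Apoa1 and Thbd were at background in both groups, and Apoa1 was not a kept probe, which leaves Amn, Cubn, Apob, Srgn and Pth1r among those 8. The differences were -0.97 ± 0.88 for Amn, -1.51 ± 1.13 for Cubn, -1.23 ± 0.42 for Apob (adjusted p = 0.0850), -1.99 ± 1.28 for Srgn and -0.62 ± 0.48 for Pth1r. Cited1 overlapped, at -0.13 ± 0.38. The SEs come from a spread shared by all 4 groups, and for Cubn the SD was 0.80 and 2.81 on the sh-SIRT1 and sh-Control RA arrays, and 0.13 and 0.53 on the sh-SIRT1 and sh-Control vehicle arrays. With only the 6 vehicle arrays in the fit Amn (adjusted p = 0.0452), Cubn (0.0311) and Pth1r (0.0476) passed. In that fit the count of all probes called stayed within 1.5 times of the main 2218. Vehicle array 1 of each line stood apart from arrays 2 and 3. The SD of the log2 difference was 0.51 and 0.50 to arrays 2 and 3 in sh-SIRT1 cells, against 0.29 between these. In sh-Control cells it was 0.52 and 0.54, against 0.31. Which arrays are duplicates is not given, so the lack of overlap and this fit may rest on fewer separate cultures than arrays. With the replicate number as a block within treatment Apob passed (-1.23, adjusted p = 0.00862) and 4707 probes were called, against 2218 without the block. With arrays scaled to their median the difference of Cited1 was 0.01. Lrp2, the partner of the receptor pair, was called lower in sh-SIRT1 cells in vehicle (-1.61 ± 0.26, adjusted p = 0.00269), as was the carrier Rbp4 (-1.87 ± 0.28, adjusted p = 0.00148). Cubn had group means of -0.64 and -3.95 in sh-SIRT1 cells under RA and vehicle, and of -0.19 and -2.44 in sh-Control cells under RA and vehicle. By these means sh-SIRT1 cells had the larger RA difference and the lower vehicle level. In the main fit neither the difference of RA effects (1.05 ± 1.45, limma adjusted p = 0.726) nor the vehicle difference (adjusted p = 0.47) passed.

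Some other markers moved in part with these genes over the RA arrays. Array 1 of the sh-Control RA group, the highest of all 16 for Srgn, Cubn, Amn and Pth1r, was also the highest of its group for the endoderm factors Gata6 (3.03, against 0.08 to 0.49 on arrays 2 to 4), Sox17 (1.62, against -2.52 to -1.35) and Pdgfra (0.02, against -2.78 to -2.69), and for Hnf4a, a regulator of the visceral endoderm, which was at -3.05 there and between -6.57 and -5.29 on arrays 2 to 4. Foxa2 was instead highest on array 2 (1.80, against 1.39 on array 1). Gata6 (0.08) and Hnf4a (-6.57) were lowest of the group on array 2, where Srgn, Cubn and Amn were second highest. Of 11 primitive endoderm factors 6 rose and 2 fell in each line (4 and 2 in sh-SIRT1 cells with a normexp background correction), among them Foxa2 by 5.41 ± 0.41 in sh-SIRT1 and 4.72 ± 0.45 in sh-Control cells, Gata6 by 4.53 ± 0.48 and 4.07 ± 0.52 and Sox17 by 3.56 ± 0.67 and 3.03 ± 0.72. Hnf4a did not pass in either line (1.46 ± 0.72 and -0.12 ± 0.78, the sh-Control value being 0.25 with that correction), although in sh-SIRT1 cells it passed when sh-Control RA array 1 was left out of the fit (adjusted p = 0.0422). The parietal endoderm collagens Col4a1 and Col4a2 rose by 5.05 and 4.98 in sh-SIRT1 cells, and on the sh-Control RA arrays Col4a1 had levels of 3.24, 0.95, -0.86 and -0.69. Of 11 parietal endoderm genes 6 rose and 0 fell in sh-SIRT1 cells, and 3 rose and 1 fell in sh-Control cells (median 0.56). Without sh-Control RA array 1 that median was -0.02, and with RA arrays 1 and 2 left out 3 rose and 4 fell (median -0.35). Plat and Krt19 of this list rose in sh-SIRT1 cells, and in sh-Control cells Plat rose while Krt19 lay at 0.56 ± 0.72, and at -0.02 without RA array 1. Beside the counts of these endoderm lists, 22.1% of all probes tested were called higher in sh-SIRT1 cells and 19.1% in sh-Control cells.

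The sh-SIRT1 RA arrays also fell into sets that the labels do not name. Arrays 1 and 2 lay above arrays 3 to 6 for Srgn (1.88 and 2.07, against -0.29 to 0.20), Cubn (0.23 and 0.51, against -1.29 to -0.97), Amn (0.12 and 0.28, against -0.96 to -0.77), Thbd (-3.81 and -3.68, against -5.05 to -4.65) and Afp (-3.16 and -2.61, against -6.34 to -5.48). Pth1r ran the other way (-0.55 and -0.22, against 0.08 to 0.30) and Cited1 showed no such order. The order also held within slides: on slide 3 array 2 lay above array 3 for these 5 genes, and on slide 4 array 1 lay above array 6. Hoxb1 and Rarb, known RA targets, rose in both lines. The RA-induced gene Cyp26a1, which encodes the enzyme that breaks RA down, was lower on arrays 1 and 2 (-1.04 and -0.78) than on arrays 3 to 6 (0.98 to 1.27), and in sh-Control cells it was at -0.67, -0.15, 1.72 and 1.54 on arrays 1 to 4.

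Fibroblast markers moved with the same arrays. Over the 10 fibroblast genes listed, the summed intensity in units of the 75th percentile lay between 10.2 and 16.6 on the sh-SIRT1 RA arrays, 9.64 and 21.8 on the sh-Control RA arrays, 2.83 and 3.38 on the sh-SIRT1 vehicle arrays and 8.40 and 9.27 on the sh-Control vehicle arrays. Between 8 and 9, 6 and 10, 6 and 6, and 6 and 7 of the 10 genes were above background on these arrays, in this order. Col3a1 was at -0.40 and 0.08 on sh-SIRT1 RA arrays 1 and 2 and at -3.76 to -2.74 on arrays 3 to 6, and at -1.59, -1.02, -6.21 and -6.56 on sh-Control RA arrays 1 to 4. Of the 8 fibroblast genes tested 7 rose in sh-SIRT1 cells and 5 in sh-Control cells, Col1a1 and Col1a2 in both, and none fell, while with RA arrays 1 and 2 left out 1 fell in sh-Control cells and Col3a1 differed by -0.075 there. The part of fibroblast RNA in the result was not tested. Of the trophoblast list, 5 of 7 tested genes rose in each line, Cdx2, Gata3, Krt7 and Hand1 among them, and 1 fell in sh-Control cells (4 and 0 there with a normexp background correction, which lost Hand1). Tpbpa was not above background on any array. The summed intensity of 9 trophoblast genes lay between 4.17 and 9.29 on the sh-SIRT1 RA arrays, 2.27 and 5.67 on the sh-Control RA arrays, 0.40 and 0.69 on the sh-SIRT1 vehicle arrays and 0.59 and 1.06 on the sh-Control vehicle arrays, and its part in the result was not tested either. Of 7 endothelial and blood genes tested, 3 rose (Tek, Pecam1 and Runx1) and 0 fell in sh-SIRT1 cells and 0 rose and 2 fell in sh-Control cells. In sh-SIRT1 cells it was 1 and 0 with a normexp background correction and 1 and 1 with quantile normalization or median scaling, and in sh-Control cells 0 and 0 with normexp. The blood genes Ptprc and Hbb-bh1 were not above background on any array. Beside the counts of the lists in this paragraph, 22.1% of all probes tested were called higher in sh-SIRT1 cells and 19.1% in sh-Control cells. In either direction it was 58.1% and 45.6%. Of 10 liver and gut genes 3 rose and 1 fell in sh-SIRT1 cells and 4 rose and 1 fell in sh-Control cells, Sox9, Cdx1 and Pdx1 rising in both, and a normexp background correction left 2 and 1 in each, without Pdx1.

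**Figure D4:**
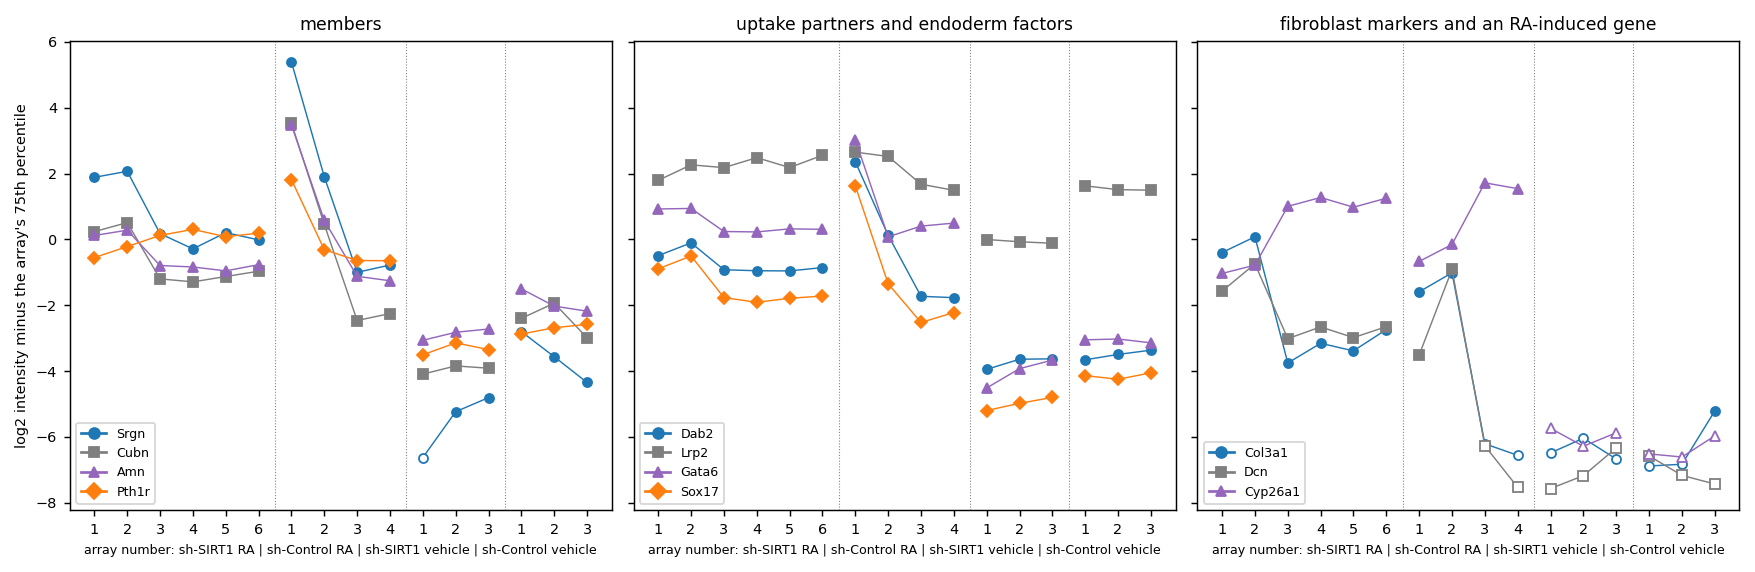
Levels of 11 genes on each of the 16 arrays, as log2 intensity minus the 75th percentile of the array, with lines joining arrays of the same group, filled points where the probe was well above background, and dotted lines between the groups. Srgn, Cubn, Amn, Dab2, Gata6 and Sox17 were highest on sh-Control RA array 1, Col3a1 and Dcn were higher on RA arrays 1 and 2 than on the other RA arrays of the same line, and Cyp26a1 was lower on those arrays than on the other RA arrays.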

How the data were processed

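RNA of E14 cells was measured on 16 1-colour Agilent whole-genome mouse arrays. Per the file headers, the authors' scans were read with Feature Extraction 9.5.3.1, which deposited a background-subtracted processed intensity for each of 45018 spots, and probe positions on build mm7. The deposited series table held the same intensity for every spot. Spots per array well above background ranged from 60.28 to 68.56%, and the number of arrays limits the precision.

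Control spots were left out, and 87 to 131 outlier-marked spots per array were set to missing. The processed intensity was taken as log2 minus the 75th percentile of the array, spots of a probe were averaged, and 26373 of 41174 probes were kept, those that every array of some group measured well above background. All 16 arrays entered 1 limma 3.58.1 fit (R 4.3.3) with 12 residual degrees of freedom and 5 comparisons, two-sided, with Benjamini-Hochberg adjustment over the kept probes and calls at 0.05. In a test on simulated data for RA against vehicle in sh-SIRT1 cells over 26373 probes, 63 of 100 probes moved by a log2 of 1 and 88 of 100 moved by 2 were called. Where no array of a group measured a probe above background, the fold is a bound against the dimmest signal that counted as above it.

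The 10 genes and the lists were chosen with earlier results of these data known. All probes of the 10 genes are reported, the brightest one standing for the gene. Of the listed partners and markers all are counted, and the direct partners plus up to 4 per list with the largest called change under RA in sh-SIRT1 cells are named. Likeness between genes is the Pearson r over 16 arrays for 18281 genes. Arrays with the same number in sh-SIRT1 and sh-Control cells deviated together from their group means (r = 0.50, 0.34 and 0.39 in vehicle and 0.50, 0.54, 0.45 and 0.43 under RA), so the number was also used as a block. RA and vehicle arrays of the same number did not (r from -0.20 to 0.21). For sh-SIRT1 RA arrays 3 and 4 the sh-Control RA array of the same number was not the best match, so the pairing by number is unsure there. The slide was tested as a block and within slides. Alternatives in background correction, scaling, filter, block, weights and arrays left out are given in the closing section. Promoter sequences are from RefSeq (GRCm38.p6), which held 13 windows for 8 of the 10 genes. Probe positions and sequences are those of the deposited files.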

Additional observations from a re-analysis of the deposited data

Results flagged for a closer look

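Both probes of Pth1r stood apart on sh-Control RA array 1. The levels there were 1.81 and 0.52, against -0.65 to -0.31 and -1.94 to -1.57 on arrays 2 to 4, so the gap to the nearest array exceeded the critical value of Dixon's test for 4 arrays. This array was also the highest of its group for Srgn, Cubn, Amn and Gata6 and the only one of the 4 with a level of Ddx3y like that of the other groups. In all 30 groups of values were examined and 2 were picked out, and chance picks out about 1 in 20. With the array left out Pth1r rose by 2.18 under RA in sh-Control cells and kept its call.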

How the results depend on the processing

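Over all alternatives 879 gene results kept their direction and side of the threshold, 13 lost and 36 gained a call, and 44 turned their sign. Srgn, Pth1r and Cited1 kept their RA call in both lines, and Cubn in sh-SIRT1 cells, under every alternative fitted. The cause of each change below was not tested, except where fewer arrays or probes entered. The alternatives that keep sh-SIRT1 RA arrays 3 to 6 only, or leave RA arrays 1 and 2 of both lines out, were chosen after seeing the data. Where sh-Control RA array 1 stands alone, that group of 1 array is assumed to vary like the other groups, and it is the highest array for most of the genes, so its calls describe that array. Dim signal limits Afp, Thbd and Apob.

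RA in sh-SIRT1 cells: normexp correction called 5 of the 8 genes and 9559 probes (main 15318), and 4 of 4 genes were called among probes above background on all arrays. RA in sh-Control cells: normexp called 3 genes and 5948 probes (main 12016), array weights 18456 probes, and 3 of 4 genes above background on all arrays. Apob was 0.069 with normexp, and Thbd -0.078 with array weights and -0.11 with RA arrays 1 and 2 left out.

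In vehicle (main 0 genes, 2218 probes), 1 gene passed with the slide block (1337 probes), 1 with the replicate block within treatment (4707), 3 with only the 2 groups, and 4 with array weights (12937). Normexp called 321 probes, and Cited1 was 0.011 with median scaling.

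Under RA (main 0 genes, 5514 probes), array weights called 3 genes and 15555 probes, sh-Control RA array 1 alone 4 and 2782, sh-SIRT1 arrays 3 to 6 only 1 gene, RA arrays 1 and 2 left out 3 and 8708, and normexp 1473 probes. With array weights the differences turned to 0.33 for Amn, 1.19 for Cubn, 0.94 for Srgn, 0.68 for Thbd, 0.15 for Cited1 and 0.74 for Pth1r. Without RA arrays 1 and 2 they were 0.35, 1.21, 0.91, 0.73, 0.13 and 0.82 in the same order. Pth1r was 0.12 with sh-SIRT1 arrays 3 to 6 only. Leaving out 1 array at a time gave -1.47 to 0.11 for Amn, -1.22 to 0.78 for Cubn, -1.50 to 0.63 for Srgn, -0.73 to 0.37 for Thbd and -0.30 to 0.52 for Pth1r, each highest without sh-Control RA array 1.

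For the difference of RA effects (main 0 genes, 1201 probes), array weights called 6 genes and 13625 probes, sh-Control RA array 1 alone 1 and 313, sh-SIRT1 arrays 3 to 6 only 1 and 1995, and RA arrays 1 and 2 left out 5 and 5936. Normexp called 27 probes, no filter 499, 1 probe per gene 657, the slide block 128 and the replicate block over all groups 292. Amn was -0.16 with normexp, -0.080 with quantile normalization, -0.076 with median scaling, -0.86 with the slide block, -3.00 with sh-Control RA array 1 alone and -0.29 with sh-SIRT1 arrays 3 to 6 only. Leaving out 1 array at a time gave -0.50 to 1.07 for Amn. With sh-Control RA array 1 alone Cubn was -2.66, Srgn -2.73, Thbd -0.41 and Pth1r -1.21. With the slide block Cubn was -0.013 and Srgn -0.065. Cited1 was 0.28 with array weights and 0.26 with RA arrays 1 and 2 left out.

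With the replicate number as a block over all groups, Cubn in sh-Control cells gained a call (2.75, limma adjusted p = 0.0384), and under this block no other call of the 8 genes changed. Leaving out 1 array at a time called 7 to 8 genes and 13405 to 15199 probes for RA in sh-SIRT1 cells, 4 to 7 and 9982 to 12121 for RA in sh-Control cells, 0 to 0 and 1033 to 2805 in vehicle, 0 to 1 and 3720 to 6379 under RA, and 0 to 1 and 339 to 2912 for the difference.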
